A study of Mus musculus with 4 samples.

Results

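Among cells sorted from the left ventricle of mouse hearts for an endothelial reporter, 59 of 39829 cells that passed the quality filters were T cells, that is 0.148% of all cells. They were chosen by their reads alone: a cell had to hold at least 2 unique molecular identifiers (UMIs, each a captured RNA molecule) of Cd3e, Cd3d and Cd3g together, at most 1 of the B-cell genes Cd79a, Cd79b and Ms4a1, and 0 of the macrophage genes C1qa and C1qb. Because Cd3e, Cd3d and Cd3g chose the cells, their levels describe the choice and were not tested. For comparison, 132 B cells and 30966 endothelial cells (ECs) were taken from the same libraries. The label T cell was checked on genes that the choice did not use. The constant part of the T-cell receptor beta chain, Trbc2, was found in 46 of the 59 cells, and that of the alpha chain, Trac, in 40.

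T cells are lymphocytes that read peptides on other cells through the T-cell receptor, whose alpha and beta chains (or gamma and delta chains in a smaller lineage) signal through the CD3 subunits. CD4 and CD8 are coreceptors for MHC class II and class I and mark helper and cytotoxic T cells, respectively. Naive T cells recirculate through lymphoid organs with the help of CCR7, whereas effector T cells enter tissues, kill targets with granzymes and perforin and secrete interferon-gamma and chemokines.

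The 4 libraries came from mice that carried Cdh5-CreER, a tamoxifen-induced recombinase driven by an endothelial promoter, floxed alleles of the scavenger receptor SR-B1, and R26-stop-tdTomato, so that endothelial cells turned red while SR-B1 was recombined in them, and the cells were sorted as RFP-positive. Tamoxifen was injected 5 times from 7 weeks of age. NC mice (libraries NC 1 and NC 2) ate chow with 10% of energy from fat and drank normal water, and HFpEF mice (HFpEF 1 and HFpEF 2), a model of heart failure with preserved ejection fraction, ate a high-fat diet with 60% of energy from fat and drank 0.5 mg/mL L-NAME, an inhibitor of nitric oxide synthase, for 20 weeks. The study's design names both S fl/fl/RΔEC mice and S fl/+/RΔEC mice on each diet, but the labels tie neither a genotype nor a number of mice to a library. Effects of genotype and diet therefore cannot be told apart here, and p-values measure only the spread between these libraries. All libraries are labelled endothelial cell, and the reporter transcript of the T cells was not measured here.

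The libraries were unequal in size and depth. NC 1, NC 2, HFpEF 1 and HFpEF 2 held 30387717, 31517933, 11163876 and 48003732 UMIs, of which 29870, 104550, 32921 and 136672 were in T cells. NC 1 contributed 4 T cells, NC 2 13, HFpEF 1 9 and HFpEF 2 33, so that HFpEF 2 alone supplied the majority of them. The median T cell held 7562.5 UMIs in NC 1, 7704 in NC 2, 4039 in HFpEF 1 and 3135 in HFpEF 2. Both NC medians lay above both HFpEF medians, so depth per cell moved with diet; its part in the differences between diets was not tested. Over all libraries the median was 4305 UMIs per T cell (range 1238 to 13951), 3545 per B cell and 2792 per EC. Of the barcodes in the filtered data, 153 occurred in more than 1 library, and 0 of these were T cells.

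T cells made up 0.0562% of the cells in NC 1 (4 of 7114 cells, 95% exact Clopper-Pearson interval 0.0153 to 0.144), 0.194% in NC 2 (13 of 6687, 0.104 to 0.332), 0.165% in HFpEF 1 (9 of 5440, 0.0757 to 0.314) and 0.160% in HFpEF 2 (33 of 20588, 0.110 to 0.225). These intervals cover counting error only. Both HFpEF libraries lay between the NC libraries. The mean share was 0.125% ± 0.0977 (SD, n = 2) in NC and 0.163% ± 0.00364 (SD, n = 2) in HFpEF, a difference of 0.0375 percentage points, which was smaller than the spread between the NC libraries. With 2 libraries in each group, the smallest two-sided p that an exact permutation test allows is 0.333, so none was run. The difference turned to -0.0143 points when 3 Cd3 UMIs were asked for and to -0.0315 points without NC 1. Without NC 2 it was 0.107 points. Of T and B cells together, T cells were 33.3%, 27.7%, 31.0% and 32.0% in NC 1, NC 2, HFpEF 1 and HFpEF 2. After thinning to 1000 UMIs these shares were 14.3%, 16.7%, 11.8% and 31.4%, resting on 1, 4, 2 and 16 T cells. When only T cells with few endothelial transcripts were counted, they were 27.3%, 10.5%, 9.09% and 23.9%, from 3, 4, 2 and 22 T cells. In both settings the exact intervals of the libraries overlapped.

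**Figure D1:**
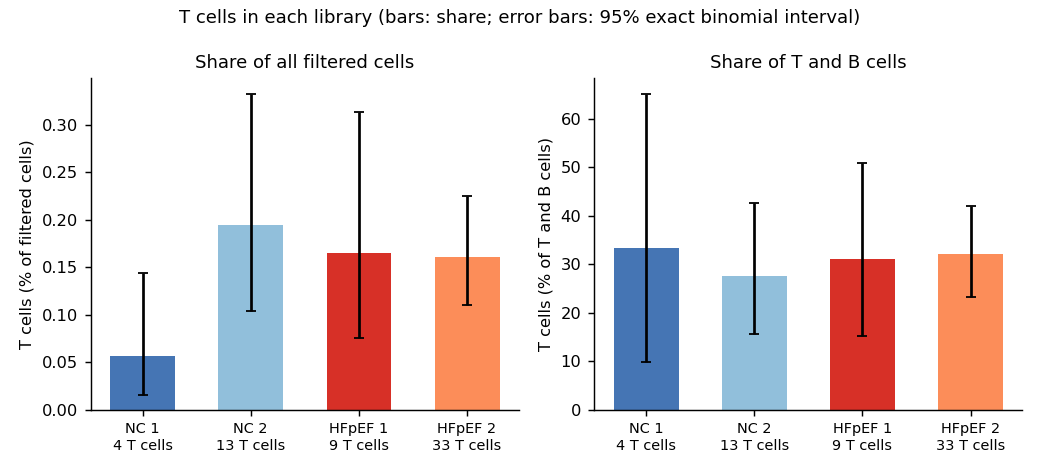
Bars give T cells as a percent of all filtered cells and as a percent of T and B cells in NC 1, NC 2, HFpEF 1 and HFpEF 2, with 95% exact binomial intervals as error bars. NC 1 has the lowest share of all cells (0.0562%) with 4 T cells, and its interval overlaps those of the other libraries.

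At the edge of the choice, 13 cells held exactly 2 Cd3 UMIs and were taken (3 in HFpEF 1 and 10 in HFpEF 2), whereas 22 cells held 1 and were not (4 in NC 2, 1 in HFpEF 1 and 17 in HFpEF 2). The other 46 T cells held 3 or more, with a median over all T cells of 4 and a highest value of 24. No cell with 2 or more Cd3 UMIs was refused for its B-cell or C1q reads. Cd3 UMIs were rare among cells with endothelial transcripts: 38 of 31258 cells with at least 2 UMIs of Pecam1 and Cdh5 held any (0.122%). Of these 38 cells, 24 were among the T cells.

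Endothelial transcripts were present in many T cells and are given before the results because they moved with several gene groups. All 14 genes of a list of endothelial markers were detected in T cells. Their summed level was 4787 CPM (UMIs per 1000000 UMIs of all T cells of a library) in NC 1, 19273 in NC 2, 17831 in HFpEF 1 and 17582 in HFpEF 2. NC 1 stood below the other libraries. The same list summed to 23948 CPM in B cells and 45462 in ECs. The most abundant of these genes in T cells was Fabp4, a fatty acid carrier of capillary ECs, with 3143 UMIs in 51 of 59 cells. Among single T cells the list took from 0% to 5.61% of UMIs, with a median of 0.427%. At least 2 UMIs of Pecam1 and Cdh5 were held by 24 of the 59 T cells and by 70 of the 132 B cells.

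When the T cells were divided by their UMIs of Cdh5, Kdr, Flt1 and Egfl7, 31 held at most 1 (3, 4, 2 and 22 in NC 1, NC 2, HFpEF 1 and HFpEF 2) and 28 held more (1, 9, 7 and 11). The median depth was 2520 UMIs in the former and 5672 in the latter. Because the division is by a fixed number of UMIs, shallow cells fall more readily into the former. The B cells were not divided, and 70 of 132 held at least 2 UMIs of Pecam1 and Cdh5. Where T cells with few endothelial transcripts are set against B cells below, lower calls of genes that ECs also hold may follow in part from the division. Trbc2, which chose neither the cells nor the division, stood at 1387 CPM in T cells with few endothelial transcripts and at 510 CPM in the others. Whether 2 cells shared a droplet or free RNA was captured was not tested, and no doublet caller was run.

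**Figure D2:**
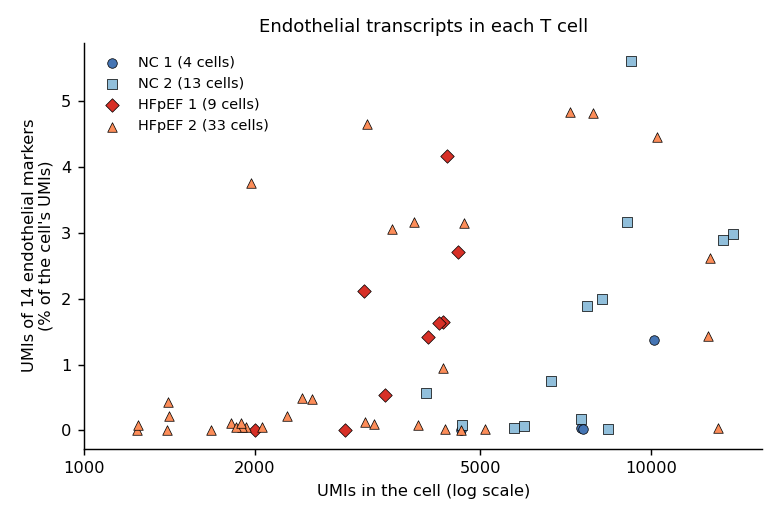
Each point is 1 of the 59 T cells, placed by its total UMIs (x axis, log scale) and by the percent of its UMIs in 14 endothelial markers (y axis), with the library as colour. Values run from 0% to 5.61% with a median of 0.427%, and many T cells of HFpEF 2 sit near 0.

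The T-cell receptor chains separated T cells from both other cell types. Trbc2 stood at 1339 CPM in NC 1, 660 in NC 2, 729 in HFpEF 1 and 893 in HFpEF 2. In B cells of every library it was 0, and in ECs at most 0.13 CPM. The groups did not overlap. Over all libraries, Trbc2 was at least 157-fold higher in T cells than in B cells, taking 3 UMIs over all B cells as the floor for a count of 0 (edgeR quasi-likelihood test, adjusted p = 2.38e-09, higher in 4 of 4 libraries), and 7376-fold higher than in ECs (12 UMIs, 95% counting interval 4149 to 14464, adjusted p = 1.52e-227). Trac, at 301, 268, 425 and 329 CPM, was at least 58.9-fold higher than in B cells and 212-fold higher than in ECs (counting interval 163 to 275). Trbc1 was at least 54.6-fold higher than in B cells; Trbc1 and Trbc2 are near-identical, so the split of reads between them is uncertain. Cd247, the zeta chain of the receptor complex, was found in 24 T cells and 0 B cells. Of the 5 receptor genes in the files that the choice did not use, 3 were tested against B cells and 4 against ECs, and all of those were called higher in T cells. The 3 tested against B cells had 0 UMIs there and passed the low-count filter only through the T cells, so their count of calls is a description and nothing is read from it. Over all genes, 7.94% of 1184 were called higher in T cells than in B cells (94 genes) and 5.83% lower (69 genes). Counts of calls in the other T-cell lists below are descriptions for the same reason. So are the p-values, here and below, of genes that passed the filter only through the cell type in which they are higher. These include the genes at 0 UMIs in B cells, and Trbc2 and Nkg7 against ECs.

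The chain genes of CD3 lie side by side on chromosome 9 of mm10, Cd3g at chr9:44969572-44980431, Cd3d at chr9:44981786-44987339 and Cd3e at chr9:44998740-45009627. Trdc, the constant part of the delta chain, was detected in 3 T cells (25 UMIs, of which 20 were in 1 cell of NC 2), and 0 of the 3 held Trac. With 3 such cells, no comparison was made.

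Genes of receptor signalling and costimulation, a list that joins kinases and adaptors with surface genes such as Cd2, Cd28, Cd27, Thy1, Ms4a4b and Ms4a6b, were also higher in T cells. Against ECs, 18 of 20 such genes were tested and all 18 were called higher in T cells, with a median log2 fold change of 8.55 beside -0.41 over all 10600 genes tested; the background was 5.01% called higher (531 genes) and 8.58% called lower (909 genes). Changes against ECs are to be read relative to that shift of -0.41. Against B cells, 5 of 20 were tested and all 5 were called higher, where 7.94% of all genes were. Their median log2 fold change was 6.30 (4.88 with genes at 0 in B cells set to their bound) beside -0.02 over all genes. Lck, the kinase that starts receptor signalling, stood at 234, 67.0, 152 and 161 CPM in NC 1, NC 2, HFpEF 1 and HFpEF 2, was detected in 30 T cells, and was 70.5-fold higher than in ECs (counting interval 49.1 to 99.0). Fyb, an adaptor that links the receptor to integrins, was at least 44.8-fold higher than in B cells (adjusted p = 1.55e-07). Skap1, its partner, was at least 29.5-fold higher (adjusted p = 6.03e-07). Cd2, an adhesion receptor, stood at 268, 134, 182 and 249 CPM in T cells and 143, 82.4, 36.7 and 73.7 CPM in B cells, T cells being higher within each library (log2 fold change 1.31 ± 0.33 (SE), adjusted p = 0.0113). The Cd2 call was lost without NC 2 (adjusted p = 0.0778), with DESeq2 (0.107) and with no low-count filter (0.0566). Cd2 passed that filter only through the T cells, so its call is a description and nothing is read from it. Themis, needed for T-cell selection in the thymus, had 16 UMIs in T cells and 0 in ECs, at least 1851-fold higher, and Cd6, a surface receptor that tunes activation, had 33 UMIs against 1.

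**Figure D3:**
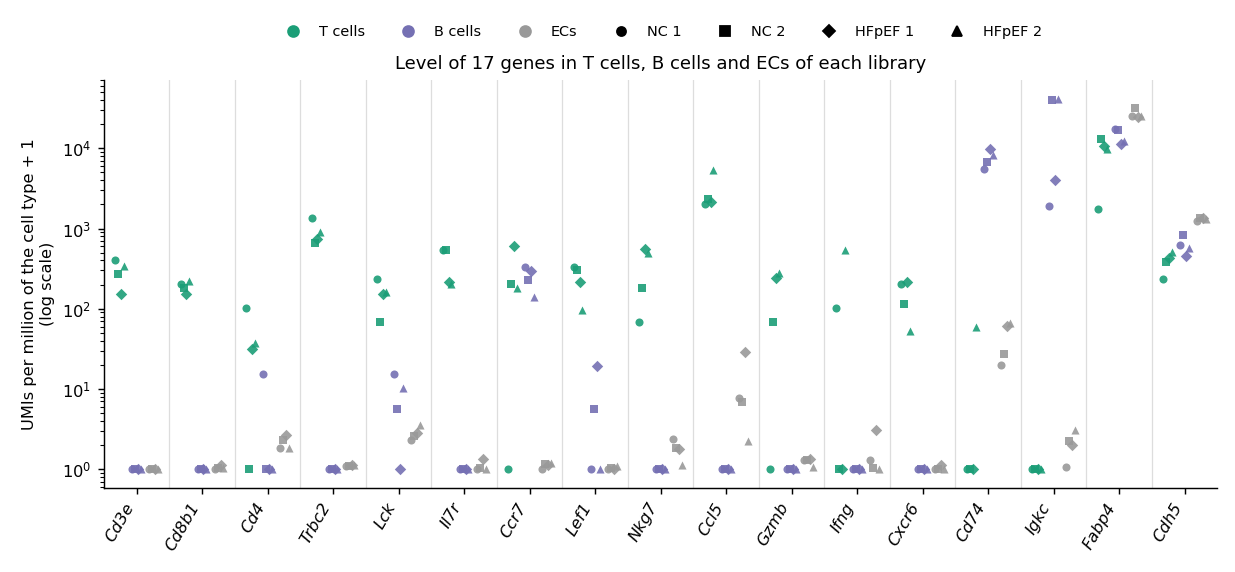
Levels of 17 genes in T cells (green), B cells (purple) and ECs (grey) as CPM plus 1 on a log axis, with 1 marker per library. Trbc2 and Il7r are at 0 in B cells of all 4 libraries, Ifng is at 0 in the T cells of NC 2 and HFpEF 1, and Fabp4 is high in all 3 cell types.

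Coreceptors divided the T cells unevenly. Cd8a or Cd8b1, the chains of CD8, were detected in 26 of 59 T cells (44.1%, exact interval 31.2 to 57.6), namely 2 in NC 1, 6 in NC 2, 3 in HFpEF 1 and 15 in HFpEF 2. Cd4 was detected in 6 (10.2%, 3.82 to 20.8), namely 1, 0, 1 and 4. The remaining 27 cells (45.8%) held neither, and 0 cells held both. The median depths of these classes were close, with 4316 UMIs in Cd8, 4896.5 in Cd4 and 3889 in the other cells. As background, a Cd4 UMI was found in 0.758% of B cells and 0.326% of ECs, and a Cd8a UMI in 0 of 132 B cells and 0.00323% of ECs. Thinned to 1000 UMIs per cell, which kept all 59 T cells, left out 13 B cells and left out 2588 ECs, Cd4 was found in 3.39% of T cells, 0% of B cells and 0.0916% of ECs, Cd8a in 10.2% of T cells and Cd8b1 in 22.0%. A cell without a coreceptor UMI may still express one at this depth.

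Cd8b1, on chromosome 6 of mm10 at chr6:71322788-71337494, was the better detected of the CD8 chains, with 60 UMIs in 22 cells against 19 UMIs in 12 cells for Cd8a (chr6:71373427-71379173). It stood at 201 CPM in NC 1, 182 in NC 2, 152 in HFpEF 1 and 220 in HFpEF 2. Those levels lay close together across libraries, with 0 UMIs in B cells. Cd8b1 was at least 36.8-fold higher in T cells than in B cells (adjusted p = 3.89e-07). Cd4, at chr6:124864692-124888221, gave 9 UMIs in all and was tested against neither cell type; its pooled level was 28.4-fold that of ECs (counting interval 12.7 to 55.9). Among lineage factors, Runx3, a factor of the CD8 lineage, and Tbx21, which drives interferon-gamma production, were called higher in T cells than in ECs, as were Bcl11b, Tox and Gata3, the last with its call lost without each library in turn (highest adjusted p = 0.219, without NC 1). The Tbx21 call rested on few UMIs, with 5 in 4 Cd8 cells, 1 in 1 cell with neither coreceptor and 0 in Cd4 cells. Foxp3, the factor of regulatory T cells, had 3 UMIs in 2 cells of HFpEF 2.

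Effector genes were high in a minority of the T cells, Ccl5 and Nkg7 above all. Ccl5, a chemokine stored by memory and effector T cells (chr11:83525778-83530518), gave 1112 UMIs in 19 cells. Its level was 2042 CPM in NC 1, 2363 in NC 2, 2157 in HFpEF 1 and 5363 in HFpEF 2. HFpEF 2 was the highest, and the value of NC 1 rested on 61 UMIs of 1 cell. B cells held 0 UMIs of Ccl5 and ECs 1.26 to 27.7 CPM, so that T cells did not overlap either type. Ccl5 was at least 683-fold higher than in B cells (adjusted p = 7.57e-11, higher in 4 of 4 libraries) and 587-fold higher than in ECs (counting interval 532 to 647). The expression was uneven: the 5 richest cells held 56.3% of the UMIs and the richest 160. After thinning, 32.2% of T cells and 0.0670% of ECs held a Ccl5 UMI.

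Nkg7, a membrane protein of cytotoxic granules (chr7:43437073-43438249), was found in 27 T cells, at 67.0, 182, 547 and 490 CPM in NC 1, NC 2, HFpEF 1 and HFpEF 2, with 0 UMIs in B cells. Both HFpEF libraries were above both NC libraries for Nkg7. In HFpEF 1 its UMIs came from 2 cells, with 7 and 11 UMIs. The same 2 cells held all UMIs of Fcer1g and Tyrobp, adaptors shared by natural killer and myeloid cells. Nkg7 was too sparse for the fit against B cells, where its pooled level was at least 65.1-fold higher. Against ECs its log2 fold change was 8.76 ± 0.42 (SE, adjusted p = 1.10e-94). There Nkg7 passed the low-count filter only through the T cells, so nothing is read from that p-value. Gzmb, the protease granzyme B (chr14:56258838-56262260), stood at 0, 67.0, 243 and 278 CPM, from 12 cells of which 10 were in HFpEF 2. Its pooled level was 800-fold that of ECs (counting interval 482 to 1367, not tested) and at least 32.5-fold that of B cells. Gzma, another granzyme, came from 5 cells (40 UMIs), all with Cd8 transcripts, and its call against ECs was lost with DESeq2 (adjusted p = 0.100). Prf1, the pore protein perforin, had 3 UMIs in 3 cells. In all, 20 cytotoxic and effector genes summed to 3080, 3262, 4739 and 7748 CPM in T cells of NC 1, NC 2, HFpEF 1 and HFpEF 2, against 148 CPM in B cells and 257 in ECs. Of these 20, 11 were tested against ECs, 9 were called higher and 0 lower (5.01% and 8.58% of all genes). Against B cells 2 were tested, Ccl5 and Id2, and both were called higher, where 7.94% of all genes were. The Id2 call, with an adjusted p of 0.0456, was lost under every alternative run, leaving out any library included (adjusted p from 0.0583 to 0.337).

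Ifng, the cytokine interferon-gamma (chr10:118441046-118445892), was carried by few T cells. It gave 77 UMIs in 10 cells, with 3 UMIs in NC 1, 0 in NC 2, 0 in HFpEF 1 and 74 in HFpEF 2, that is 100, 0, 0 and 541 CPM. Nearly all of it thus came from 1 library, where 9 of 33 T cells held it. The richest cell held 26 UMIs (33.8%) and the 5 richest 85.7%. For the libraries at 0, the 13 T cells of NC 2 and the 9 of HFpEF 1 are few, and absence cannot be read from them. Ifng was not found in B cells and was found in 28 UMIs of ECs, so the pooled level was at least 47.3-fold that of B cells and 955-fold that of ECs (counting interval 612 to 1528); it was too sparse to be tested. After thinning, 11.9% of T cells and 0.00352% of ECs held a UMI. Of the 10 Ifng cells, 9 also held Nkg7, 8 Ccl5 and 4 Gzmb, whereas 0 held Ccr7.

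The promoters of Gzmb and Ifng, 2 effector genes whose UMIs came mainly from HFpEF 2, and of Cd8a, a chain of the coreceptor that many of the effector cells carried, are shown as the 200 bases before the RefSeq start in GRCm38.p6, at chr14:56262335-56262534 (minus strand), chr10:118440846-118441045 (plus strand) and chr6:71373227-71373426 (plus strand). They are printed 5′ to 3′ with matches in capitals. On both strands, TGTGGT (or its complement ACCACA), letters bound by RUNX factors, and TCACAC (or GTGTGA), letters bound by T-box factors, were searched; the motifs do not share a site here.
Gzmb: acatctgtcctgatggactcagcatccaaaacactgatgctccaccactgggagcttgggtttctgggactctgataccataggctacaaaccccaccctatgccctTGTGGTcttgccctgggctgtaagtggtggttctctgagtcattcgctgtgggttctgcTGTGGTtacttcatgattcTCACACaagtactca
Ifng: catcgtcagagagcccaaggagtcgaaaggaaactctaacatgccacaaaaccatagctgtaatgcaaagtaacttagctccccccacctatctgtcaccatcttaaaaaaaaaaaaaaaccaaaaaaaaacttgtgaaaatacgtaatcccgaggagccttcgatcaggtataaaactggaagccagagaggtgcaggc
Cd8a: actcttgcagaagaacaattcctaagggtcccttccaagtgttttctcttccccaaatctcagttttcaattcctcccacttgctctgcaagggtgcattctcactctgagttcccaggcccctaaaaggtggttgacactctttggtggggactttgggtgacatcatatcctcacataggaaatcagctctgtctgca
The Gzmb stretch held TGTGGT at 93 to 88 and at 34 to 29 bases before the start and TCACAC at 15 to 10 bases before it. The Ifng and Cd8a stretches held neither run of letters. Over 32851 RefSeq promoters of the same length, 11.2% held TGTGGT and 9.85% TCACAC on either strand, so a match is common and describes letters only.

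Effector transcripts were spread over coreceptor classes unequally. Ccl5 was detected in 15 of 26 Cd8 cells, 0 of 6 Cd4 cells and 4 of the 27 with neither. For Nkg7 the counts were 17, 2 and 8, for Ifng 7, 1 and 2, and for Klrd1, the CD94 chain of a receptor for nonclassical MHC, 13, 1 and 1. Gzmb went another way with 4, 2 and 6 cells. Cxcr6, a chemokine receptor of tissue-resident T cells (chr9:123806475-123811760), and Ccr2, a receptor for monocyte chemoattractants, were each found in 0 Cd8 cells, 2 Cd4 cells and 6 with neither, and Cd40lg, the helper signal to B cells, had the same counts. The 6 Cd4 cells make any share among them imprecise, and the classes rest on sparse UMIs of the same cells, so no test was made.

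Genes of naive and recirculating T cells were shared in part with B cells. Ccr7, the lymph node homing receptor, stood at 0, 201, 608 and 183 CPM in T cells of NC 1, NC 2, HFpEF 1 and HFpEF 2 and at 329, 229, 294 and 138 CPM in B cells, so the cell types overlapped (log2 fold change 0.02 ± 0.39 (SE), adjusted p = 0.979). Against ECs, which held 14 UMIs, it was not tested. Il7r, the receptor for the survival cytokine IL-7, was found in 33 T cells at 536, 536, 213 and 205 CPM and in 0 B cells, at least 65.7-fold higher (adjusted p = 7.96e-08), and 9285-fold higher than in ECs (4 UMIs, counting interval 3522 to 34698). The levels of Il7r in NC were above those in HFpEF in every library. Lef1 and Tcf7, transcription factors of naive and memory T cells, were found in 27 and 22 T cells and in 1.52% and 0% of B cells. Satb1, a chromatin organizer of T cells, was called higher in T cells than in B cells (log2 fold change 1.06 ± 0.27 (SE), adjusted p = 0.0118), but not without NC 2 (adjusted p = 0.158) or HFpEF 2 (0.135), with DESeq2 (0.103) or with no low-count filter (0.0647). Klf2, which keeps T cells recirculating and is also high in ECs, was lower in T cells than in ECs, with a log2 fold change of -1.28 ± 0.26 (SE, adjusted p = 2.68e-05). Of 11 such genes, 6 were tested against B cells, 2 were called higher and 0 lower (7.94% and 5.83% of all genes), and 9 were tested against ECs, 5 being higher and 1 lower (5.01% and 8.58% of all genes). Klf2 was, however, called lower than in B cells with no low-count filter (adjusted p = 0.0443), with 3 Cd3 UMIs (0.0198) and in T cells with few endothelial transcripts (log2 fold change -1.86, adjusted p = 2.67e-06). Among the 5, the call of Igfbp4, a binding protein of insulin-like growth factors, was lost without NC 2 (adjusted p = 0.400), with DESeq2 (0.116) and in T cells with few endothelial transcripts (0.390).

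Effector and naive transcripts mostly sat in different T cells. With Ccl5, Nkg7, Gzma, Gzmb, Ifng and Ccl4 as an effector sum and Ccr7, Lef1 and Tcf7 as a naive sum, genes that were put together after their values were seen, 22 cells reached 3 UMIs of the effector sum only, 23 of the naive sum only, 3 of both and 11 of neither. The effector-only cells numbered 1 in NC 1, 1 in NC 2, 2 in HFpEF 1 and 18 in HFpEF 2, and the naive-only cells 2, 10, 6 and 5. The 2 effector-only cells of HFpEF 1 held all the Fcer1g and Tyrobp UMIs found in T cells. HFpEF 2 was the library with more effector-only than naive-only cells. Depth moved with this division, the median being 2030 UMIs in effector-only and 5746 in naive-only cells. Cd8 transcripts were held by 12 of the 22 effector-only cells and by 10 of the 23 naive-only cells. Ccr7 and Lef1 were found together in 16 cells. Ccr7 was found with Ifng in 0 cells, with Gzmb in 1, with Ccl5 in 3 and with Nkg7 in 5. Lef1 and Nkg7, each found in 27 cells, were together in 9.

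**Figure D4:**
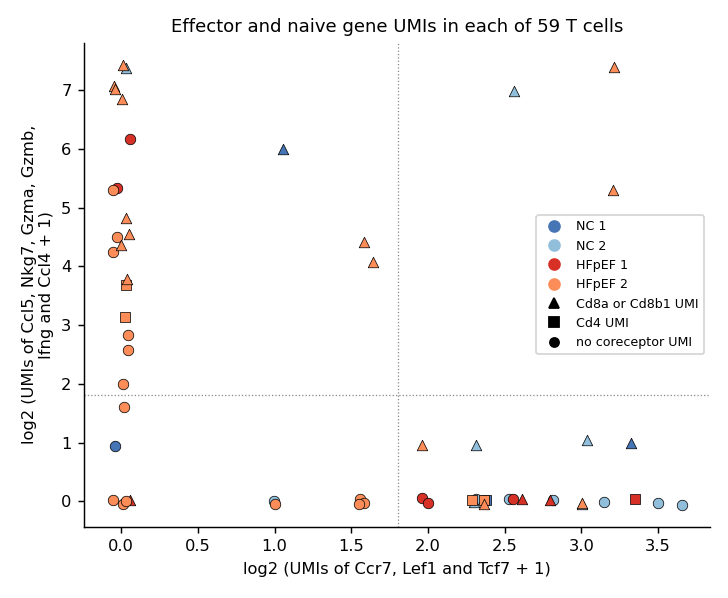
Each point is 1 of the 59 T cells, with UMIs of Ccr7, Lef1 and Tcf7 (x axis) against UMIs of Ccl5, Nkg7, Gzma, Gzmb, Ifng and Ccl4 (y axis), both as log2 of UMIs plus 1 with a small jitter, colour for library and shape for coreceptor. Dotted lines part cells below 3 UMIs from the rest, leaving 22 cells with the effector sum only, 23 with the naive sum only and 3 with both.

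The division by endothelial transcripts moved with these genes too. T cells with few endothelial transcripts had the cytotoxic and effector list at 9462 CPM, against 2999 CPM in those with more. Ifng stood at 623 CPM (8 of 31 cells) and 31.6 CPM (2 of 28 cells), respectively, and Ccl4 at 667 and 5.26 CPM. Cxcr6 was found in 8 of 31 and 0 of 28 cells, a count of 0 that allows up to 10.7% of cells with a UMI at this depth and does not limit the share that express it. The naive list summed to 2914 and 3882 CPM, a direction that rested on Klf2, which is also high in ECs (641 and 1641 CPM). Its members were divided. Lef1, Tcf7, Il7r, Satb1 and Dapl1 were higher in cells with few endothelial transcripts. Ccr7, S1pr1, Bach2, Foxp1 and Igfbp4 were lower there, as was Klf2. The part of endothelial transcripts in these differences was not tested, and 22 of the 31 cells with few of them came from HFpEF 2.

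Chemokine receptors and adhesion genes included several that T cells use to enter tissue. Cxcr3, the receptor for CXCL9 and CXCL10, was rare in T cells: 6 UMIs in 5 cells, with 3 UMIs in NC 1, 0 in NC 2, 0 in HFpEF 1 and 3 in HFpEF 2. After thinning, 1.69% of T cells held it, which is 1 cell, so its level was near the limit of detection. Of the Cxcr3 cells, 2 also held Ccl5 and 1 Ifng. Its ligands were found mainly in ECs: Cxcl9 stood at 0, 9.56, 30.4 and 22.0 CPM in T cells against 98.3, 110.1, 169 and 140 CPM in ECs of NC 1, NC 2, HFpEF 1 and HFpEF 2 and was called lower in T cells (log2 fold change -3.01 ± 0.55 (SE), adjusted p = 1.54e-06). Cxcl10 was called lower as well (-1.47 ± 0.41 (SE), adjusted p = 0.00373) but not without NC 2 (adjusted p = 0.105) or with no library term (0.186), and 18 of its 19 UMIs in T cells were in HFpEF 2. Selplg, the ligand of P-selectin on vessel walls, stood at 636, 230, 213 and 307 CPM in T cells and at 9.21 to 55.1 CPM in B cells, without overlap (log2 fold change 3.67 ± 0.42 (SE), adjusted p = 1.72e-06). Selplg passed the low-count filter only through the T cells, so its p-value is a description and nothing is read from it. Of 19 genes in this list, 11 were tested against ECs; 10 were called higher, among them Cxcr6, Cd69, Ccr2 and Itgb7, and Itgb1 was called lower, where 5.01% and 8.58% of all genes were. The Cxcr4 call in that group (log2 fold change 1.65) was lost without NC 1 (adjusted p = 0.263). In T cells with few endothelial transcripts it was lost and its sign turned (-0.19, adjusted p = 0.893). The call of Cd44, a hyaluronan receptor, was lost without NC 1 (0.0657) or HFpEF 2 (0.131).

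Most cytokine genes were sparse in T cells, but Ltb and Tgfb1 were found in more cells than Ifng. Ltb, lymphotoxin beta, was found in 31 T cells at 435, 249, 182 and 183 CPM and, against B cells, gave a log2 fold change of 0.57 ± 0.36 (SE, adjusted p = 0.316), or 1.55 (adjusted p = 0.000659) in T cells with few endothelial transcripts. Tgfb1, a cytokine that restrains T cells and is made by many cell types, was found in 21 T cells (42 UMIs) and was called against neither cell type, but in T cells with few endothelial transcripts it was called lower than in B cells (log2 fold change -1.81, adjusted p = 0.00785) and than in ECs (-2.30, adjusted p = 0.00190). Tnf was found in 8 T cells and Cd40lg in 8. Il4, Il5, Il13, Il17a, Il21, Il22 and Csf2, products of other helper T-cell classes, were at 0 UMIs in the 59 cells, which allows a pooled level of up to 9.87 CPM and up to 5.08% of T cells with a UMI at this depth; it sets no limit on the share that express them. Icos, a costimulator of activated T cells, was the most abundant of the regulatory and checkpoint genes, at 837, 115, 334 and 263 CPM, and was at least 51.6-fold higher than in B cells (adjusted p = 1.39e-07). Ctla4 was found in 9 cells and Pdcd1 in 6, while Lag3 and Tigit were at 0 UMIs. Mki67, a gene of dividing cells, was at 0 UMIs as well.

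Markers of other blood cells were scarce in T cells. Of 8 natural killer cell markers, 4 were at 0 UMIs, Ncr1 and Klrb1c among them, and the list summed to 0, 38.3, 637.9 and 36.6 CPM in NC 1, NC 2, HFpEF 1 and HFpEF 2. Fcer1g and Tyrobp, signalling adaptors shared by natural killer and myeloid cells, gave 10 and 9 UMIs, all in 2 T cells of HFpEF 1. Both were called higher than in ECs, and without HFpEF 1 the calls were lost (adjusted p = 0.595 and 0.650) and the signs turned; the calls were also lost with DESeq2 (0.893 and 0.795) and with 3 Cd3 UMIs (0.0942 and 0.592). Of 10 myeloid markers, 9 were at 0 UMIs and Cd68 had 3, but C1qa and C1qb were held at 0 by the choice of cells. B-cell markers were fixed low in part by the choice of cells; outside it, Igkc, the kappa light chain, had 0 UMIs in T cells and 18159 in B cells, at least 3286-fold lower (adjusted p = 8.24e-12). Ly6d and Iglc2 were at 0 UMIs in T cells too, at least 60.3-fold and 35.1-fold lower. Of 12 B-cell markers on the list, 7 were at 0 UMIs in T cells and 5 were detected. Among the latter, Ebf1 had 33 UMIs in 14 T cells and Ighm 13 UMIs in 10. Both were called lower than in B cells, whereas against ECs Ighm was called higher and Ebf1 lower. Cd74, the MHC class II chaperone, was present at 8 UMIs in T cells, all from HFpEF 2, and 4189 in B cells, with a log2 fold change of -8.24 ± 0.39 (SE, adjusted p = 1.51e-11). All 4 class II genes tested were called lower than in B cells, where 5.83% of all genes were, and 0 of 4 were called against ECs, where 5.01% of all genes were called higher and 8.58% lower. The class II list held 20 UMIs in T cells and 7257 in B cells. These genes, like Igkc, Ly6d and Iglc2, passed the low-count filter only through the B cells. Their calls against B cells are descriptions, and nothing is read from them.

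Among genes outside the lists, S100a4, a calcium-binding protein of memory T cells, and Emb, an adhesion protein, were higher than in B cells. S100a4 stood at 1908, 650, 699 and 629 CPM in T cells and at 0 to 4.61 CPM in B cells (adjusted p = 2.66e-10), from 234 UMIs against 1. Emb stood at 1339, 660, 729 and 746 CPM in T cells, 216-fold higher than in B cells (counting interval 59.2 to 1798, adjusted p = 6.56e-10). In both genes NC 1, with 4 T cells, was highest. Both were named for large rises and passed the low-count filter through the T cells. Their p-values are therefore descriptions, and nothing is read from them. Against ECs, the rule for named genes, which ranks by fitted fold change, gave Mgp, Ccl21a, Vwf, Acta2 and Tagln as falls; all were at 0 UMIs in T cells, so their order by size is not established. Mgp, a matrix protein, was at least 26.6-fold lower in T cells, Vwf, the von Willebrand factor, at least 7.08-fold, and the smooth muscle genes Acta2 and Tagln at least 6.53-fold and 6.13-fold; Ccl21a has near-identical copies and is uncertain.

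Endothelial genes were lower in T cells than in ECs, 12 of 12 being called where 8.58% of all genes were, with a median log2 fold change of -1.81 beside -0.41. Against B cells 1 of 11 was called lower, where 5.83% of all genes were, namely Cldn5, a tight junction protein (log2 fold change -1.81 ± 0.44 (SE), adjusted p = 0.00878), and this call was lost without NC 2 (adjusted p = 0.188) or HFpEF 2 (0.151). Fabp4 gave a log2 fold change of -0.82 ± 0.34 (SE, adjusted p = 0.111) against B cells, but was called lower with 3 Cd3 UMIs (-0.94, adjusted p = 0.0168), with no low-count filter (-0.97, adjusted p = 9.47e-06) and in T cells with few endothelial transcripts (-5.46, adjusted p = 3.03e-14). Aqp1, a water channel, was called lower under the same 3 settings and without HFpEF 2 (adjusted p = 0.0272), and Esam, a junction protein, without HFpEF 1 (0.0359). In T cells with few endothelial transcripts, lower levels of this list follow in part from how those cells were divided.

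Of 12 interferon-induced genes, 1 was called higher than in ECs, Ifi27l2a, and 6 lower, where 5.01% and 8.58% of all genes were, with a median log2 fold change of -0.79 beside -0.41; in T cells Ifi27l2a stood at 1808, 277, 122 and 190 CPM, and 51 of the 54 UMIs of NC 1 were in 1 cell. Of the 6 lower calls, that of Gbp2, a guanylate-binding protein, was lost without NC 2, HFpEF 1 or HFpEF 2 (adjusted p = 0.300, 0.0651 and 0.247). It was also lost with DESeq2 (0.165), no library term (0.0832) and 3 Cd3 UMIs (0.0587). The call of Bst2, the antiviral tetherin, was lost without HFpEF 1 (0.182), with DESeq2 (0.0933) and with no library term (0.0961). Against B cells 1 of 6 was called, Iigp1, an interferon-induced GTPase, which was lower (adjusted p = 0.0234) but not without NC 2 (0.107) or HFpEF 2 (0.143), with DESeq2 (0.0653) or with no library term (0.126). Over all genes, 7.94% were called higher and 5.83% lower than in B cells. In T cells with few endothelial transcripts, Isg15 (log2 fold change -2.68), Ly6a (-2.34), Bst2 (-2.09) and Irf1 (-1.97) were called lower than in B cells and Ifi27l2a (1.28) higher, the last also with 3 Cd3 UMIs. The B cells were not divided by endothelial transcripts in this setting.

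Of 12 immediate early and heat shock genes, which rise with stress and tissue dissociation, 8 were called lower than in ECs, with a median log2 fold change of -1.16 beside -0.41, where 8.58% of all genes were lower. Against B cells, 1 of 12 was called lower, a share near the 5.83% of all genes, namely Jun (log2 fold change -0.89 ± 0.25 (SE), adjusted p = 0.0208), a call lost without NC 1, NC 2 or HFpEF 2 (adjusted p = 0.0646, 0.181 and 0.0635) and with DESeq2 (0.0684). Other genes of this list were called lower than in B cells under other settings: Egr1, Zfp36, Hspa1a and Hspa1b with 3 Cd3 UMIs, and in T cells with few endothelial transcripts these 4 and Fos, Fosb, Dusp1, Dnajb1 and Hsp90aa1, among them Egr1 with a log2 fold change of -4.03 and Fos with -3.12. Without NC 1, Hspa1a and Hspa1b were called lower than in B cells (adjusted p = 0.00555 and 0.00678), and without HFpEF 1, Zfp36 and Hspa1b were (0.0337 each). With no low-count filter, Hspa1a and Hspa1b were called lower than in B cells too. Against ECs the Hspa1b call was lost without HFpEF 2 (adjusted p = 0.149) and, like that of Hspa1a, with no library term (0.170 and 0.119, respectively). This list summed to 7303 CPM in T cells with few endothelial transcripts and 20186 CPM in the others.

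**Figure D5:**
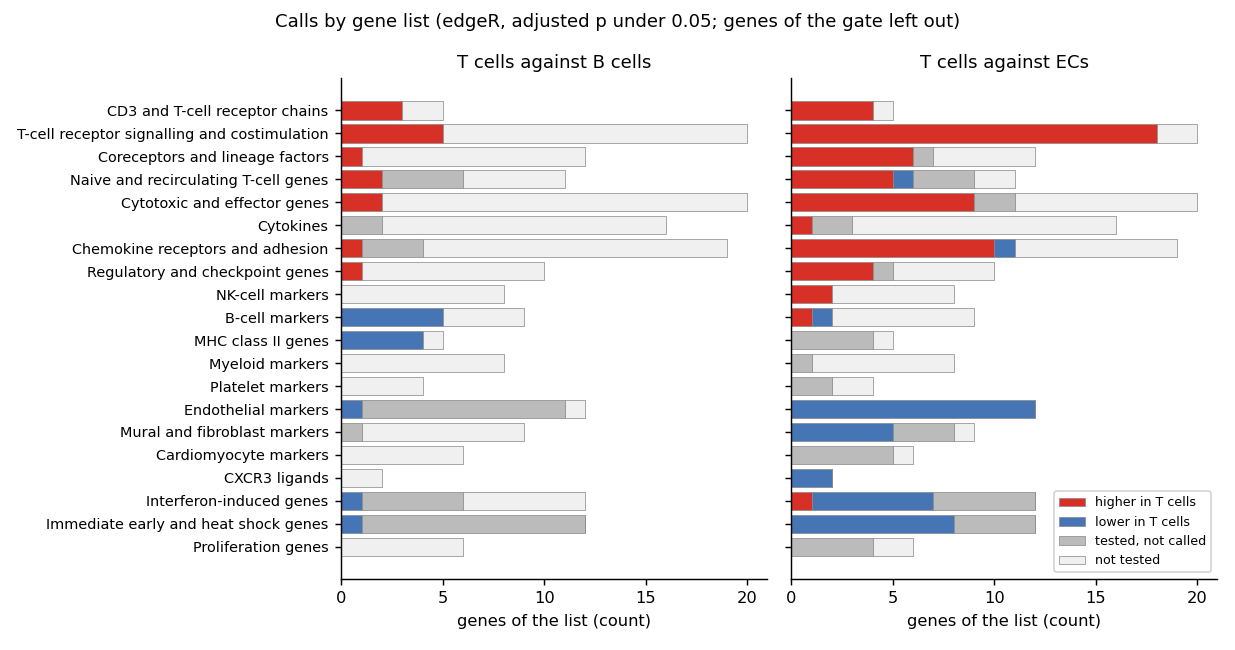
Stacked bars count, for each gene list, the genes called higher in T cells, called lower, not called and not tested, against B cells and against ECs. Of the signalling list, 18 of 20 genes were higher than in ECs, and of the endothelial list 12 of 12 were lower.

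These counts depended on the larger libraries. Against B cells 163 genes were called in all, 66 without NC 2 and 70 without HFpEF 2. Against ECs 1440 were called in all, 850 without NC 2 and 739 without HFpEF 2. Restricting T cells to those with few endothelial transcripts called 286 genes against B cells, of which 95 were among the 163, while 48 of the 163 could not be tested; against ECs it called 1700, of which 1026 were among the 1440.

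Between diets, T cells differed in 1 called gene, a chemokine that was at 0 in both NC libraries. Of 986 genes tested for HFpEF against NC, this 1 was called with edgeR (0.101%), and 54 had an unadjusted p under 0.05. The called gene was Ccl4, a chemokine of activated CD8 T cells (chr11:83662584-83664683). It had 0 UMIs in NC 1, 0 in NC 2, 15 in HFpEF 1 and 62 in HFpEF 2, that is 456 and 454 CPM in the HFpEF libraries. The groups did not overlap. Ccl4 was at least 20.3-fold higher in HFpEF against a floor of 3 UMIs over both NC libraries (adjusted p = 0.0187). With 0 UMIs in NC it passed the low-count filter only through the HFpEF libraries, so the call is a description and nothing is read from it. The UMIs came from 9 cells, and the 5 richest held 90.9%. In HFpEF 1 the Ccl4 UMIs came from 2 cells without coreceptor UMIs, with 3 and 12 UMIs. These 2 cells also held all UMIs of Fcer1g and Tyrobp, adaptors shared by natural killer and myeloid cells. The call was lost without NC 2 and without HFpEF 2, and with the library number as a replicate block, where 0 genes were called. Ccl4 UMIs were almost confined to T cells with few endothelial transcripts (76 of 77), and 24 of these 31 cells were in HFpEF libraries.

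Of the other effector genes, Nkg7 (log2 fold change 1.71 ± 0.48 (SE), adjusted p = 0.682), Gzmb (2.28 ± 0.68, adjusted p = 0.682) and Ccl5 (0.71 ± 0.39, adjusted p = 0.682) were not called between diets, and Ifng was not tested. The cytotoxic and effector list, with 6 of 20 genes tested and Ccl4 the only one called, had a median log2 fold change of 1.21 beside 0.02 over all genes, and, as for Ccl4, the filter bears on which of them were tested. Il7r gave -1.44 ± 0.40 (SE, adjusted p = 0.682) and Lef1 -1.35 ± 0.51 (SE, adjusted p = 0.682). Tmem176b and Tmem176a, a pair of membrane protein genes, had the smallest p among genes lower in HFpEF, at 268, 249, 0 and 36.6 CPM and at 368, 268, 0 and 58.5 CPM in NC 1, NC 2, HFpEF 1 and HFpEF 2, and were not called (adjusted p = 0.5004 each). Akap12, a kinase scaffold, and Nr4a2, an immediate early nuclear receptor, had small p among genes higher in HFpEF and were not called either (adjusted p = 0.682 each). Cd8b1 gave -0.02 ± 0.46 (SE, adjusted p = 0.998). Of the 5 receptor genes that the choice did not use, 4 were tested between diets and 0 were called.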

How the data were processed

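Single-cell RNA was captured with 10x 3' chemistry (v3) from 4 libraries. The authors trimmed reads with fastp and made the deposited UMI counts per gene and cell with Cell Ranger 5.0.1 on mm10. Their methods also describe downsampling reads per cell between samples; whether the deposited counts are from before or after it was not settled, and depth per cell differs between diets in them. Counts are whole UMIs, and a 3' count does not scale with gene length. Cells needed more than 200 genes, under 20% mitochondrial UMIs and under 1% hemoglobin UMIs, the last step being added here. Of 41843 deposited cells, 40154 passed the first pair of filters and 39829 all; no doublet caller was run. Counts were summed per cell type and library and tested with edgeR 4.0.16 (quasi-likelihood, library as a term for cell types, Benjamini-Hochberg adjusted p under 0.05, low counts removed with filterByExpr), with DESeq2 1.42.0 as an alternative; the code was tested on simulated data. Pooled folds carry 95% Poisson counting intervals, shares exact binomial ones, and a count of 0 a floor of 3 UMIs; these cover counting error only. Genes that chose the cells were left out of all counts of calls.

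The members and the 20 gene lists (216 of 220 genes in the files; Tcrg-C1, Tcrg-C2, Tcrg-C4 and Cxcl11 were not analysed here) were chosen with earlier results of these data known; 1 further list gene is not reported here. Any list gene could be named, besides called genes of at least 50 CPM in the higher cell type with 1 direction in all 4 libraries: the 10 largest rises and 5 largest falls against B cells, 5 and 5 against ECs, and between diets the called genes or, with fewer than 3 calls, the 3 smallest p in each direction. Cells were thinned to 1000 UMIs once (seed 1). B cells held at least 2 UMIs of Cd79a, Cd79b and Ms4a1, at most 1 of the Cd3 genes and 0 of C1qa and C1qb. ECs held at least 2 UMIs of Pecam1 and Cdh5 and 0 of the Cd3, B-cell and C1q genes, so ECs with a stray lymphocyte UMI of those genes are not among them. Alternatives were a Cd3 minimum of 1 or 3, other filters, no library term, a replicate block, only T cells with few endothelial UMIs, and leaving out each library. Gene positions are from GENCODE vM21 and promoters from RefSeq, both on GRCm38.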

Additional observations from a re-analysis of the deposited data

Results flagged for a closer look

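For 12 genes the 2 libraries of one diet moved one way and the 2 of the other diet the opposite way when T cells were set against another cell type of the same library. They are 8 of 68 genes examined against B cells, of which 7 of 63 were list genes (11.1%), and 4 of 144 examined against ECs, of which 3 of 134 were list genes (2.24%). Akap12 and Tmem176b are in none of the lists and were examined because the rule for named genes gave them for their small p between diets. Over all genes tested the same pattern was met by 106 of 1184 (8.95%) and 662 of 10600 (6.25%), so it is common with 2 libraries for each diet. These differences between diets were not tested, and each value below is the mean in HFpEF minus the mean in NC of the T-cell level minus the other cell type's level, in CPM. Against B cells, the difference was larger in HFpEF for Flt1, a VEGF receptor (684.9 CPM), Fosb, an immediate early gene (477.8 CPM), Ccr7 (357.6 CPM), S1pr1, the receptor for exit from lymph nodes (317.3 CPM), Itgb1, an integrin chain (200.1 CPM), and Akap12 (184.8 CPM). It was smaller in HFpEF for Ifi27l2a (-994.7 CPM) and Ltb (-291.3 CPM). Against ECs, it was larger in HFpEF for Stmn1, a microtubule regulator (64.7 CPM), and Zeb2, a factor of effector T cells (45.1 CPM), and smaller for Irf7, an interferon response factor (-137.3 CPM), and Tmem176b (-221.8 CPM). NC 1 entered each NC mean with 4 T cells, and the Ifi27l2a value rests on its 1808 CPM in that library, where 51 of 54 UMIs were in 1 cell.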

How the results depend on the processing

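The number of genes called in T cells against B cells was 163, with 85 under DESeq2 (85 of the 163 kept), 330 with no low-count filter and 286 in T cells with few endothelial transcripts, and it ran from 66 to 212 when each library was left out. It was 141 with no library term and 198 with 3 Cd3 UMIs. Against ECs it was 1440, ranged from 960 (DESeq2) to 1700 (few endothelial transcripts) over the other alternatives, and from 739 to 1277 when each library was left out. Between diets 1 gene was called, 3 with few endothelial transcripts, and from 1 to 15 when each library was left out, the 15 being without NC 1. The library numbers are shared by NC and HFpEF but nothing ties them; deviations of NC 1 and HFpEF 1 from their group means correlated at -0.081 over 991 genes, and with the replicate block 0 genes were called. The difference in T-cell share, 0.0375 percentage points, ran from -0.0143 (3 Cd3 UMIs) to 0.0581 (1 Cd3 UMI), and ran from -0.0315 to 0.107 when each library was left out. Taken as a share of T and B cells it was 1.04 points, but -6.59 with 3 Cd3 UMIs, 4.17 with 1, -2.34 with a mitochondrial maximum of 10%, -2.40 with few endothelial transcripts and 6.09 after thinning, so its sign depended on the setting. Against ECs, the Gbp2 call was lost with DESeq2, no library term and 3 Cd3 UMIs and the Bst2 call with DESeq2 and no library term; Cxcr4 turned to a log2 fold change of -0.19 in T cells with few endothelial transcripts, and over the libraries left out in turn Fcer1g ran from -9.06 to 3.95 and Tyrobp from -8.72 to 4.17, both lowest without HFpEF 1, where T cells held 0 UMIs of both. The causes were not tested. With 59 T cells and 304013 UMIs, genes under about 9.87 CPM could not be told from 0.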

Other observations

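Values of 3 surface genes that the comparisons above only counted were as follows. Ms4a4b, a membrane protein of T cells, stood at 636, 411, 516 and 944 CPM in NC 1, NC 2, HFpEF 1 and HFpEF 2 and was found in 45 of 59 T cells, against 4 UMIs in all B cells. Klrk1, the NKG2D receptor of killer cells, was found in 10 T cells and 0 B cells, at 33.5, 19.1, 152 and 95.1 CPM. Ly6c2, a surface protein of memory CD8 T cells, was found in 14 T cells at 67.0, 163, 182 and 212 CPM. The median mitochondrial share of UMIs was 4.00% in T cells of NC 1, 6.15% in NC 2, 5.94% in HFpEF 1 and 3.54% in HFpEF 2.

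Markers of other heart cells were also measured in T cells. Of 9 mural and fibroblast markers 5 were at 0 UMIs, and the list summed to 128 CPM in T cells and 775 CPM in ECs, Rgs5, a pericyte gene, being the most abundant with 33 UMIs in 9 T cells. Of 6 cardiomyocyte markers 1 was at 0, and the list summed to 0, 19.1, 365 and 14.6 CPM in T cells of NC 1, NC 2, HFpEF 1 and HFpEF 2, against 63.2, 41.7, 183 and 68.3 CPM in ECs. Over all libraries it was 52.6 CPM in T cells and 69.1 CPM in ECs, and in HFpEF 1 T cells stood above ECs, with 10 of 12 UMIs in 1 cell. Of 4 platelet markers 3 were at 0 and Itga2b had 1 UMI. Of 6 proliferation genes 4 were at 0, and Stmn1 was found in 19 T cells.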
